A study of Mus musculus with 4 samples.

Results

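The cells described here were single liver cells that carried transcripts of Xcr1 and Clec9a, the receptors that mark type 1 conventional dendritic cells (cDC1). They were picked by their own UMIs (unique molecules counted per gene and cell). A cell needed at least 2 UMIs of Xcr1 plus Clec9a, and at least 20 UMIs of the MHC class II genes H2-Aa, H2-Ab1 and Cd74 together. It also had to hold fewer than 5 UMIs of the maturation genes Ccl22, Ccr7, Fscn1 and Cacnb3, at most 2 of Clec4f, and fewer than 10 of the C1q genes. The endothelial genes Kdr, Ptprb, Stab2, Oit3, Ehd3 and Egfl7 had to stay under 0.2% of its UMIs. Of 25861 cells that had 200 genes or more and no more than 25% mitochondrial UMIs, 178 met these gates, which is 0.688%. They are called Xcr1/Clec9a cells below, because not all of them carried the other cDC1 markers. The 19 genes of the gates chose the cells, so their values are given as descriptions without a test.

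The samples were nonparenchymal liver cells of 4 wild-type male mice aged 8 to 10 weeks, 2 treated with carbon tetrachloride (CCl4), which is toxic to hepatocytes and leads to liver fibrosis when given repeatedly, and 2 given its vehicle, corn oil. CCl4 was mixed 1 to 9 in corn oil and injected into the peritoneum at 10 µl per g of body weight, 2 times a week for 5 weeks, and the livers were taken 48 hours after the last injection. Livers were digested with pronase and collagenase and hepatocytes were spun out at 50 × g. Each library is 1 mouse by its labels, so tests compare 2 mice with 2 mice, and the smallest p an exact permutation test can give is 0.333.

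cDC1 are the dendritic cells that take up dying cells and present their contents on MHC class I to CD8 T cells, a process called cross-presentation. Xcr1 is the receptor for the chemokine Xcl1 made by NK and CD8 T cells, and Clec9a is a lectin that binds actin exposed on dead cells. Their development depends on the growth factor receptor Flt3 and the transcription factors Irf8 and Batf3.

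Depth differed between the groups. The median kept cell held 6793 UMIs in CCl4 1 and 6036 in CCl4 2, against 5325 in corn oil 1 and 4441 in corn oil 2. The Xcr1/Clec9a cells together held 337113 and 364272 UMIs in the CCl4 mice, against 269419 and 208394 in the corn oil mice. Between 48 and 74 cell indices occurred in both libraries of a pair, and 0 of the chosen cells had an index that was chosen in both. The file headers show that the CCl4 1 table was made in a separate processing run from the other 3, so the values without CCl4 1 are given beside the gene calls.

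The 178 cells were 51 in CCl4 1 and 50 in CCl4 2, against 38 in corn oil 1 and 39 in corn oil 2, and they fell into a pair of separate kinds. Siglech, a lectin that marks plasmacytoid dendritic cells in mouse, had 0 to 2 UMIs in 117 of them and 5 or more in the other 61, with no cell between. The Siglech-bearing cells numbered 22 and 16 in the CCl4 mice, against 8 and 15 in the corn oil mice. They made up 31.5% and 24.1% of the summed UMIs in the CCl4 mice, against 12.1% and 26.2% in the corn oil mice, so the groups overlapped in this makeup. Each of them had entered through Clec9a: their Clec9a UMIs ran up to 7 in CCl4 mice and up to 4 in corn oil mice, and Xcr1 was found in 1 of the 61.

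The Siglech-bearing cells also carried other genes known from plasmacytoid dendritic cells. The chemokine receptor gene Ccr9 was found in 19 of 22 and 16 of 16 of them in the CCl4 mice, against 8 of 8 and 15 of 15 in the corn oil mice. The transcription factor gene Tcf4, which maintains plasmacytoid dendritic cells, was found in all 61. Klk1, Ly6d and Cox6a2 were found in 0 of the 117 cells low in Siglech. The data therefore go against the cDC1 label for 61 of the 178 cells. The split at 5 Siglech UMIs was chosen after seeing the data, and gene tests in the cells low in Siglech are an alternative to those over all 178 cells.

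The 117 cells low in Siglech carried the cDC1 markers that the gates did not use. Wdfy4, which is required for cross-presentation, was found in 28 of 29 and 32 of 34 of them in the CCl4 mice, against 29 of 30 and 23 of 24 in the corn oil mice. Naaa, a lysosomal amidase gene, was found in 26 and 32 cells in the CCl4 mice, against 29 and 23 in the corn oil mice. In the Siglech-bearing cells Naaa was found in 0 and 2 cells in the CCl4 mice, against 0 and 0 in the corn oil mice. Flt3 was found in 24 of 29 and 31 of 34 cells low in Siglech in the CCl4 mice, against 29 of 30 and 21 of 24 in the corn oil mice. In Siglech-bearing cells it was found less often in every mouse, in 13 of 22 and 8 of 16 in the CCl4 mice, against 4 of 8 and 9 of 15 in the corn oil mice. The Siglech-bearing cells were shallower; with cells thinned to 2000 UMIs, Flt3 was found in 37.9% and 61.8% of the cells low in Siglech in the CCl4 mice, against 63.3% and 50.0% in the corn oil mice. In thinned Siglech-bearing cells it was found in 36.4% and 37.5% in the CCl4 mice, against 37.5% and 46.7% in the corn oil mice.

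**Figure D1:**
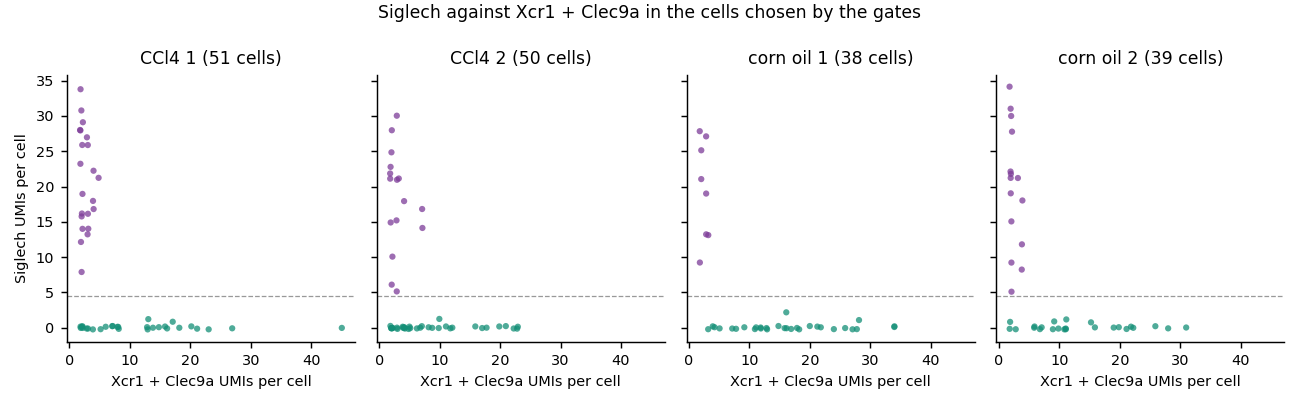
Each point is 1 of the 178 chosen cells, with its Xcr1 plus Clec9a UMIs on the x axis and its Siglech UMIs on the y axis (jittered by up to 0.25 UMI), in 1 panel per mouse, CCl4 mice left. The 61 cells above the dashed line hold 5 or more Siglech UMIs and few Xcr1 plus Clec9a UMIs; the 117 cells below it hold 0 to 2.

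Xcr1 and Clec9a are given across the cell types of the same livers as a description, because the gates used both. Summed over the cells low in Siglech, Xcr1 reached 926 and 590 CPM (the UMI count scaled to the total UMIs of the summed cells) in the CCl4 mice, against 1343 and 1424 CPM in the corn oil mice. In endothelial cells it was at most 0.139 CPM, and in cells chosen for the cDC2 genes Cd209a and Mgl2 it is 0 because their gate requires that.

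Clec9a stood at 545 and 514 CPM in the CCl4 mice and 735 and 689 CPM in the corn oil mice in the cells low in Siglech. In Siglech-bearing cells outside the gates it stood at 194 and 239 CPM in the CCl4 mice and 92.8 and 63.2 CPM in the corn oil mice, a lower level that the gate fixes, since the Siglech-bearing members were admitted by their Clec9a UMIs. In endothelial cells Clec9a had at least 1 UMI in 15% and 13.02% of cells in the CCl4 mice, against 8.49% and 5.36% in the corn oil mice, with median depths of 6594 and 5906 UMIs, against 5176.5 and 4215 UMIs. Xcr1 had at least 1 UMI in 0.100% and 0% of them in the CCl4 mice, against 0% and 0.0598% in the corn oil mice. The source of Clec9a UMIs in endothelial cells was not tested.

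Wdfy4 and Naaa, which the gates did not use, were higher in the cells low in Siglech than in the Siglech-bearing members of every mouse. Wdfy4 stood at 1078 and 850 CPM in the cells low in Siglech of the CCl4 mice and 954 and 1021 CPM in those of the corn oil mice. In Siglech-bearing members it stood at 28.3 and 125 CPM in the CCl4 mice and 123 and 55.0 CPM in the corn oil mice. Naaa reached 1731 and 1222 CPM in the cells low in Siglech of the CCl4 mice and 1617 and 1580 CPM in those of the corn oil mice, which overlap. Both genes were also present in cDC2, the cells chosen for Cd209a and Mgl2. Wdfy4 was found in 44.9% and 43.9% of cDC2 in the CCl4 mice, against 53.1% and 43.8% in the corn oil mice, and Naaa in 44.9% and 46.3% in the CCl4 mice, against 53.1% and 50.0% in the corn oil mice. Irf8 was present in both kinds of member and was higher in the Siglech-bearing members, at 4960 and 3520 CPM in the CCl4 mice and 5000 and 4782 CPM in the corn oil mice. In the cells low in Siglech Irf8 stood at 2450 and 2156 CPM in the CCl4 mice and 2791 and 2919 CPM in the corn oil mice.

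**Figure D2:**
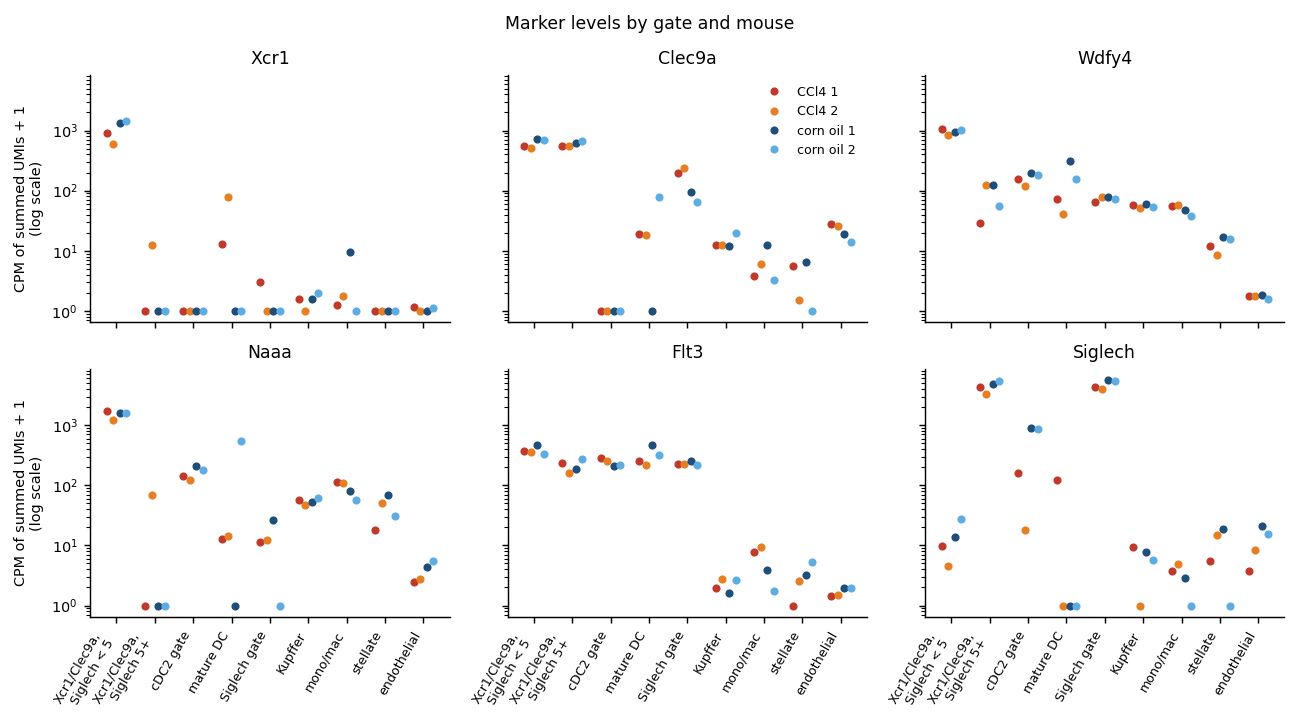
CPM of summed UMIs plus 1 (log scale) of 5 cDC1 markers and Siglech in the Xcr1/Clec9a cells, split at 5 Siglech UMIs, and in 7 other sets of cells of the same livers; 1 point per mouse, CCl4 mice left of corn oil mice. Xcr1, Wdfy4 and Naaa are highest in the cells low in Siglech, while Clec9a differs little between the kinds; the mature dendritic set has 2 cells in each corn oil mouse, and the Siglech gate holds Siglech-bearing cells outside the chosen ones.

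The cells just inside the gate were mostly Siglech-bearing. Of the cells with exactly 2 Xcr1 plus Clec9a UMIs, 13 of 18 and 8 of 14 held 5 or more Siglech UMIs in the CCl4 mice, against 4 of 4 and 11 of 13 in the corn oil mice. Of the cells with 1 such UMI that met all other gates, 12 of 21 and 8 of 19 did in the CCl4 mice, against 15 of 16 and 5 of 10 in the corn oil mice. Cells with 10 or more Xcr1 plus Clec9a UMIs numbered 14 and 13 in the CCl4 mice, against 23 and 15 in the corn oil mice, and 0 of them were Siglech-bearing.

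The first comparison asked whether these cells took a larger part of the nonparenchymal cells after CCl4. Xcr1/Clec9a cells were 0.830% (95% exact binomial interval 0.619 to 1.09) and 0.890% (0.661 to 1.17) of kept cells in the CCl4 mice. In the corn oil mice they were 0.555% (0.393 to 0.760) and 0.538% (0.383 to 0.735). The means were 0.860% ± 0.0417 in CCl4 and 0.546% ± 0.0116 in corn oil (SD, n = 2 each), a log2 ratio of 0.65, and both CCl4 mice lay above both corn oil mice. A two-sided exact permutation test gave p = 0.333, which no split of 2 against 2 mice can undercut. These intervals cover counting error only. The other kept cells differed as well: endothelial cells were 32.5% and 33.6% of kept cells in the CCl4 mice, against 71.2% and 69.2% in the corn oil mice. A share of kept cells moves with the number of other cells and is not a number of Xcr1/Clec9a cells per liver. The part of the endothelial share in this difference was not tested.

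The size of that difference moved with the gates and with depth. With the Siglech-bearing cells left out, the shares were 0.472% and 0.605% in the CCl4 mice, against 0.438% and 0.331% in the corn oil mice (log2 0.49, exact permutation p = 0.333). With every cell thinned to 2000 UMIs, they were 0.391% and 0.320% in the CCl4 mice, against 0.350% and 0.25% in the corn oil mice, which overlap (log2 0.24, exact permutation p = 0.667). With thinning and a minimum of 1 Xcr1 plus Clec9a UMI, they were 0.537% and 0.623% in the CCl4 mice, against 0.482% and 0.404% in the corn oil mice, which do not overlap (log2 0.39, exact permutation p = 0.333). With the limits on Clec4f, C1q and endothelial UMIs not applied, they were 1.03% and 1.17% in the CCl4 mice, against 0.992% and 1.16% in the corn oil mice (log2 0.03, exact permutation p = 0.667).

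Those 3 limits removed more cells from corn oil livers. Cells with at least 2 Xcr1 plus Clec9a UMIs and at least 20 class II UMIs numbered 71 and 71 in the CCl4 mice, against 72 and 89 in the corn oil mice. Of these, the Clec4f limit removed 5 and 3 in the CCl4 mice, against 20 and 42 in the corn oil mice. The C1q limit removed 12 and 10 in the CCl4 mice, against 25 and 44 in the corn oil mice, and the endothelial limit 8 and 10 in the CCl4 mice, against 25 and 40 in the corn oil mice; a cell could exceed several limits. The part that cells carrying Kupffer or endothelial transcripts had in the difference was not tested further.

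**Figure D3:**
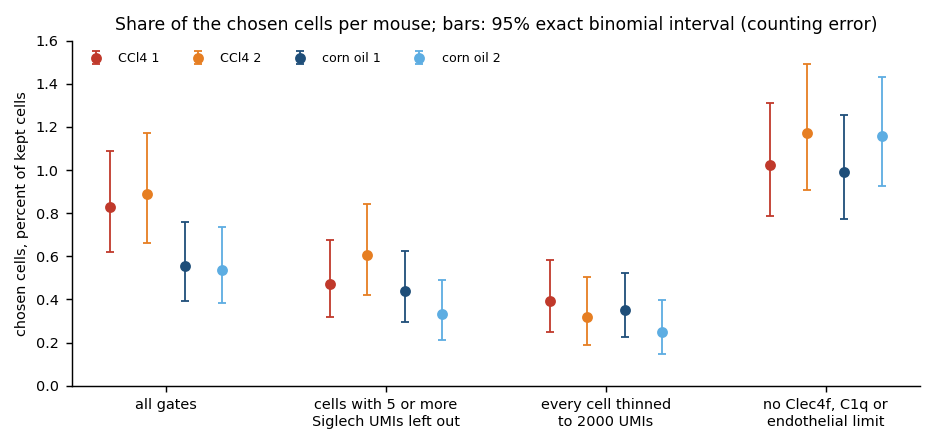
Chosen cells as a percent of kept cells in each mouse (points, CCl4 mice left of corn oil mice) with 95% exact binomial intervals for counting error, under the gates as written and under 3 other settings. The CCl4 mice lie above the corn oil mice with all gates (0.830% and 0.890% against 0.555% and 0.538%) and overlap them after thinning (minimum of 2 UMIs) and with the Clec4f, C1q and endothelial limits not applied.

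Conventional dendritic cells of type 2 (cDC2), which present antigen mainly to CD4 T cells, were used for comparison as the other conventional dendritic cells. They were picked by the same gates but with 0 UMIs of Xcr1 plus Clec9a and at least 2 of Cd209a plus Mgl2, and numbered 49 and 41 in the CCl4 mice, against 32 and 16 in the corn oil mice. Xcr1/Clec9a cells were 51.0% and 54.9% of both kinds together in the CCl4 mice, against 54.3% and 70.9% in the corn oil mice. The groups overlapped (log2 -0.24, exact permutation p = 0.667). With Siglech-bearing cells left out of both sets, the shares were 38.2% and 45.3% in the CCl4 mice, against 54.5% and 68.6% in the corn oil mice (log2 -0.56, exact permutation p = 0.333).

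The next comparison asked which genes differed within the Xcr1/Clec9a cells. The UMIs of these cells were added up within each mouse, and the sums were compared by edgeR's quasi-likelihood test. Levels from here on are normalised CPM of those sums unless called summed CPM, and a change is the log2 ratio of CCl4 to corn oil, given with its SE (standard error). Of 4751 genes tested, 4 were called at an adjusted p under 0.05, or 0.0842%: Ifitm1 was higher after CCl4 (0.021%), and Selenop, Cadm1 and Car3 were lower (0.0631%). At an unadjusted p under 0.05 there were 389 genes (8.19%), 186 higher (3.91%) and 203 lower (4.27%). The groups did not overlap in 899 genes with higher CCl4 values (18.9%) and 906 with lower ones (19.1%).

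Cadm1, an adhesion molecule of cDC1 that binds CRTAM on activated T and NK cells, had 339 and 288 CPM in the CCl4 mice, against 701 and 806 CPM in the corn oil mice. It fell by 1.26 on the log2 scale (SE 0.21, adjusted p = 0.0437). Cadm1 was found in 25 of 51 and 22 of 50 cells in the CCl4 mice, against 28 of 38 and 24 of 39 in the corn oil mice, and in 1.40% and 1.16% of endothelial cells in the CCl4 mice, against 1.05% and 0.957% in the corn oil mice. In the cells low in Siglech alone it had 475 and 357 CPM in the CCl4 mice, against 793 and 1080 CPM in the corn oil mice, and was not called (log2 -1.16, adjusted p = 0.0586). The gene lies at chr9:47530173-47857637 on the plus strand (GRCm38).

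Ifitm1, an interferon-induced membrane protein that restricts virus entry (chr7:140967221-140969825, plus strand), rose. It had 84.8 and 123 CPM in the CCl4 mice, against 8.35 and 10.4 CPM in the corn oil mice (log2 3.43, SE 0.56, adjusted p = 0.0437). A small number of cells carried it: 6 and 9 cells in the CCl4 mice, against 2 and 2 in the corn oil mice. A single cell held 16 of 27 UMIs in CCl4 1 and another 18 of 42 in CCl4 2, while no cell held more than 1 in the corn oil mice. Of these CCl4 cells, 5 of 6 and 9 of 9 were low in Siglech, and in the cells low in Siglech alone Ifitm1 was again called (log2 3.57, SE 0.55, adjusted p = 0.0138).

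Selenop, the selenium carrier protein that hepatocytes secrete (chr15:3268547-3280508, plus strand), had 145 and 153 CPM in the CCl4 mice, against 505 and 437 CPM in the corn oil mice. It fell by 1.66 on the log2 scale (SE 0.23, adjusted p = 0.0219). Endothelial cells carried far more of it, at 15488 and 17070 summed CPM in the CCl4 mice, against 21714 and 21057 in the corn oil mice. Both CCl4 mice also lay below both corn oil mice in all 6 other sets of cells compared (cDC2, Siglech-gated, Kupffer, monocyte/macrophage, stellate and endothelial cells).

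Car3, a carbonic anhydrase abundant in hepatocytes (chr3:14863512-14872523, plus strand), had 0 UMIs in the CCl4 mice, against 12 and 15 UMIs in the corn oil mice. With the floor of 3 counts over the CCl4 group this is at least 13.7-fold lower (adjusted p = 0.0468). It was found in 6 and 5 cells of the corn oil mice and in 9.06% and 6.28% of their endothelial cells, against 0.953% and 0.529% of endothelial cells in the CCl4 mice. As with Selenop, it was lower in both CCl4 mice in all 6 other sets. The part of free RNA in the Selenop and Car3 values was not tested.

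Without CCl4 1, the library of the separate run, 0 genes were called by edgeR, with 256 at an unadjusted p under 0.05, and the lone CCl4 mouse is assumed to vary like the corn oil mice. There the log2 values were -1.38 for Cadm1, 3.67 for Ifitm1 and -1.62 for Selenop, with adjusted p of 0.638, 0.544 and 0.638. Without CCl4 2 the adjusted p was 0.0596 for Cadm1 and 0.0614 for Ifitm1, and without corn oil 1 it was 0.112 for Car3. DESeq2 and limma-voom each called Selenop and Cadm1 and no higher gene; with at most 15% mitochondrial UMIs only Selenop was called.

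**Figure D4:**
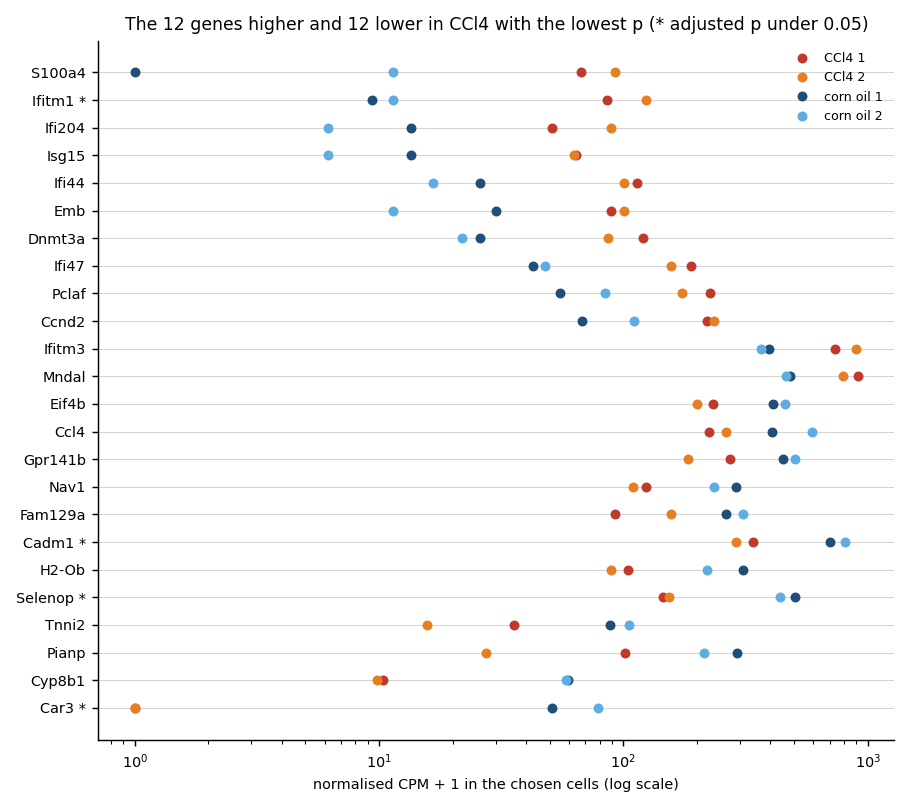
Normalised CPM plus 1 (log scale) in each mouse for 24 genes, ordered by log2 change. Asterisks mark the 4 called genes. The 24 have the lowest p in either direction among genes with at least 20 CPM in 1 group and no group overlap. Non-overlap of the groups was therefore a condition of their choice. Car3 is at 0 in the CCl4 mice.

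Xcr1, used by the gates, had 672 and 482 CPM in the CCl4 mice, against 1327 and 1139 CPM in the corn oil mice. In the cells low in Siglech it had 1016 and 640 CPM in the CCl4 mice, against 1529 and 1609 CPM in the corn oil mice, and was found in 22 of 29 and 23 of 34 cells, against 28 of 30 and 22 of 24. Clec9a had 578 and 558 CPM in the CCl4 mice, against 809 and 744 CPM in the corn oil mice. H2-Ab1, a class II beta chain, had 9076 and 8558 CPM in the CCl4 mice, against 13552 and 11274 CPM in the corn oil mice. Both CCl4 mice were below both corn oil mice in these 3 genes. H2-Ab1 was also lower in both CCl4 mice in 5 of the 6 other sets of cells.

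Genes that define cDC1 mostly had lower values after CCl4. Of 29 tested members of this list that the gates did not use, 1 was called (Cadm1), 26 had negative log2 values, 13 had an unadjusted p under 0.05 with lower values and 1 with higher. Over all 4751 genes tested, 2376 had negative log2 values. The list's median log2 was -0.51, against -0.00 over all genes tested, and -0.41 in the cells low in Siglech alone. The lists were chosen with results of these data known. Xcr1, Wdfy4 and Naaa were low in the Siglech-bearing cells. Those cells made up 31.5% and 24.1% of the summed UMIs in the CCl4 mice, against 12.1% and 26.2% in the corn oil mice, which overlap. Among the cells low in Siglech, 7 of 29 and 8 of 34 held only 2 or 3 Xcr1 plus Clec9a UMIs in the CCl4 mice. In the corn oil mice 1 of 30 and 3 of 24 did. The part of these cells and of the Siglech-bearing cells in the list's values was not tested.

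Among them, Pianp had 101 and 26.5 CPM in the CCl4 mice, against 292 and 213 CPM in the corn oil mice (log2 -2.01, SE 0.42, adjusted p = 0.127). Gpr141b had 273 and 182 CPM in the CCl4 mice, against 451 and 505 CPM in the corn oil mice (log2 -1.07, SE 0.24, adjusted p = 0.146). Tlr11, which with Tlr12 senses profilin of Toxoplasma, had 110 and 76.4 CPM in the CCl4 mice, against 200.3 and 198 CPM in the corn oil mice (log2 -1.10, adjusted p = 0.196). In these 3 genes the groups did not overlap, which was a condition of the choice of Pianp and Gpr141b among the lower genes.

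The integrin gene Itgae, which encodes CD103, had 141 and 106 CPM in the CCl4 mice, against 163 and 234 CPM in the corn oil mice (log2 -0.67, adjusted p = 0.571). The lysosomal thioesterase gene Ppt1 had 983 and 1020 CPM in the CCl4 mice, against 1536 and 1462 CPM in the corn oil mice (log2 -0.58, adjusted p = 0.229). Cystatin C (Cst3) had 12815 and 13008 CPM in the CCl4 mice, against 17754 and 14510 CPM in the corn oil mice (log2 -0.32, adjusted p = 0.492). Of the 3 members with positive log2 values, Ifi205 was at 0.33 and Snx22 at 0.12, with overlapping groups. The third, Cd8a, the gene of the CD8 alpha chain, had 179 and 50.0 CPM in the CCl4 mice, against 25.04 and 26.0 CPM in the corn oil mice. Of the cells with Cd8a, 11 of 15 and 7 of 7 were Siglech-bearing in the CCl4 mice, against 2 of 3 and 2 of 4 in the corn oil mice.

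The markers Wdfy4, Naaa and Flt3 were not called. Wdfy4 had 792 and 723 CPM in the CCl4 mice, against 960 and 832 CPM in the corn oil mice (log2 -0.25, SE 0.19). Naaa had 1257 and 1011 CPM in the CCl4 mice, against 1598 and 1264 CPM in the corn oil mice (log2 -0.34, SE 0.19). Flt3 overlapped, with 346 and 332 CPM in the CCl4 mice, against 484 and 343 CPM in the corn oil mice (log2 -0.30, SE 0.23).

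The transcription factors and growth factor receptors of these cells were not called either. Of 26 tested, 1 had an unadjusted p under 0.05, Cebpa, with 34.6 and 38.2 CPM in the CCl4 mice, against 62.6 and 88.4 CPM in the corn oil mice. The median log2 was -0.08. Irf8 had 3431 and 2660 CPM in the CCl4 mice, against 3438 and 3694 CPM in the corn oil mice (log2 -0.23, SE 0.16). Batf3 overlapped, with 59.7 and 82.3 CPM in the CCl4 mice, against 100.1 and 57.2 CPM in the corn oil mice (log2 -0.17, SE 0.40). Id2, which cDC1 development needs, had 1995 and 2154 CPM in the CCl4 mice, against 2324 and 2284 CPM in the corn oil mice (log2 -0.15, SE 0.15).

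No tested MHC class II, MHC class I or cross-presentation gene was called over all members. Over all 4751 genes tested, 8.19% had an unadjusted p under 0.05, 3.91% with higher and 4.27% with lower values. Of 9 tested MHC class II genes outside the gates, 0 were called by edgeR and 2 had an unadjusted p under 0.05, both with lower values, and the median log2 was -0.39. H2-Ob, a subunit of the H2-O complex that restrains peptide loading by H2-M, had 104 and 88.2 CPM in the CCl4 mice, against 309 and 219 CPM in the corn oil mice (log2 -1.47, SE 0.29, adjusted p = 0.0778). The class II beta chain gene H2-Eb1 had 5614 and 4297 CPM in the CCl4 mice, against 8162 and 7169 CPM in the corn oil mice (log2 -0.63, SE 0.15, adjusted p = 0.151). H2-Eb1 was also lower in both CCl4 mice in all 6 other sets of cells, and H2-Ob in 4 of the 6. Ciita, the class II transactivator, overlapped, with 286 and 359 CPM in the CCl4 mice and 459 and 333 CPM in the corn oil mice.

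Of 23 MHC class I genes, 0 were called by edgeR, 2 had an unadjusted p under 0.05 with lower values, and the median log2 was 0.08. The class I heavy chain gene H2-D1 had 1737 and 1684 CPM in the CCl4 mice, against 2224 and 2149 CPM in the corn oil mice (log2 -0.35, adjusted p = 0.571). It was also lower in both CCl4 mice in all 6 other sets of cells. B2m, the class I light chain, overlapped, with 3195 and 3030 CPM in the CCl4 mice and 2716 and 3163 CPM in the corn oil mice. H2 genes are near copies of each other, so the division of reads among them is uncertain.

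Of 16 cross-presentation genes tested, 0 were called by edgeR, 4 had an unadjusted p under 0.05 with higher values and 1 with lower, and the median log2 was 0.06. Sec61b, a subunit of the translocon implicated in antigen export, had 396 and 353 CPM in the CCl4 mice, against 234 and 208 CPM in the corn oil mice (log2 0.75, SE 0.23, adjusted p = 0.264). Syk, the kinase that signals below Clec9a, had 135 and 168 CPM in the CCl4 mice, against 58.4 and 104 CPM in the corn oil mice (log2 0.93, SE 0.35, adjusted p = 0.439). Cybb, the catalytic subunit of the phagocyte oxidase, had 911 and 714 CPM in the CCl4 mice, against 305 and 671 CPM in the corn oil mice. In the cells low in Siglech alone Cybb had 161 and 208 CPM in the CCl4 mice, against 24.0 and 51.4 CPM in the corn oil mice, and was called (log2 2.37, SE 0.43, adjusted p = 0.0494).

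Interferon-stimulated genes mostly had higher values after CCl4. Of 23 tested, 0 were called by edgeR or as higher by DESeq2 or limma-voom, 9 had an unadjusted p under 0.05 with higher values and 0 with lower, and 21 had positive log2 values. Over all 4751 genes tested, 2375 had positive log2 values. The list's median log2 was 0.61, and 0.68 in the cells low in Siglech. Ifi47, an interferon-inducible GTPase gene, had 189 and 156 CPM in the CCl4 mice, against 41.7 and 46.8 CPM in the corn oil mice (log2 1.95, SE 0.35, adjusted p = 0.067). Of the cells with Ifi47 in the CCl4 mice, 14 of 20 and 9 of 23 were Siglech-bearing. In the cells low in Siglech alone Ifi47 had 80.7 and 126 CPM in the CCl4 mice, against 38.5 and 14.7 CPM in the corn oil mice (log2 1.84, adjusted p = 0.236). Ifi44 had 113 and 99.9 CPM in the CCl4 mice, against 25.04 and 15.6 CPM in the corn oil mice (log2 2.33, SE 0.46, adjusted p = 0.0778). Isg15, a ubiquitin-like modifier, had 62.8 and 61.7 CPM in the CCl4 mice, against 12.5 and 5.20 CPM in the corn oil mice (log2 2.69, SE 0.62, adjusted p = 0.146). Of the cells with Isg15 in the CCl4 mice, 8 of 15 and 4 of 13 were Siglech-bearing, and Isg15 was not tested in the cells low in Siglech. Over all members the groups did not overlap in these 3 genes, which was a condition of their choice among the 12 higher genes.

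Isg15 was found in 15 of 51 and 13 of 50 Xcr1/Clec9a cells in the CCl4 mice, against 3 of 38 and 1 of 39 in the corn oil mice. In endothelial cells it was found in 34.4% and 19.4% in the CCl4 mice, against 10.7% and 10.2% in the corn oil mice, so its level was higher in both CCl4 mice there too, as it was in all 6 other sets of cells. Ifitm3, a neighbour of Ifitm1 on chromosome 7, had 735 and 899 CPM in the CCl4 mice, against 392.2 and 364 CPM in the corn oil mice (log2 1.11, SE 0.21, adjusted p = 0.067). In the cells low in Siglech alone Ifitm3 was called, with 1078 and 1122 CPM in the CCl4 mice, against 447 and 485 CPM in the corn oil mice (log2 1.24, SE 0.20, adjusted p = 0.0138). Ifitm3 too was higher in both CCl4 mice in all 6 other sets. Irf9 and Mx1 of the same list had log2 values of 0.17 and 0.07, with adjusted p of 0.934 and 0.983.

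The promoters of 3 of these genes are shown because they hold the interferon-stimulated response element that interferon regulatory factors such as Irf8 and Irf9 recognise. The element was searched as GAAANNGAAA on either strand in the 300 bases around each RefSeq gene start (GRCm38.p6, 250 before and 50 after it). It was present in 8 of the 19 tested interferon genes with a promoter in the table (42.1%), against 172 of all 3777 tested genes with one (4.55%) and 1079 of 27025 genes of the table (3.99%). In 6 of the 8 a match lies wholly before the start. Capitals mark the matches, which overlap in Isg15 and Irgm1. The windows are chr4:156200855-156200916 for Isg15, chr11:48871421-48871470 for Irgm1 (both minus strand) and chr11:58199502-58199551 for Igtp (plus strand), and each is written from 5′ to 3′.
Isg15: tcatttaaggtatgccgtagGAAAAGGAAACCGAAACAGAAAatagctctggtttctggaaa
Irgm1: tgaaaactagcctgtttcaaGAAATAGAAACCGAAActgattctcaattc
Igtp: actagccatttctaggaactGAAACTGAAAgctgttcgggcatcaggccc

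The matches begin 66 to 78 bases before the start in Isg15, 24 to 30 in Irgm1 and 34 in Igtp. Irgm1, an immunity-related GTPase gene, had 59.7 and 79.4 CPM in the CCl4 mice, against 29.2 and 20.8 CPM in the corn oil mice (log2 1.44, SE 0.48, adjusted p = 0.327). Igtp, a related GTPase gene, had 37.7 and 41.1 CPM in the CCl4 mice, against 4.17 and 15.6 CPM in the corn oil mice (log2 2.03, SE 0.75, adjusted p = 0.428). A match is a description of the letters and not evidence of binding. Ifitm1 and Ifitm3 hold no match before their starts in these windows. Ifi47 and Ifi44, the genes of the interferon list with the lowest adjusted p, hold none there either.

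**Figure D5:**
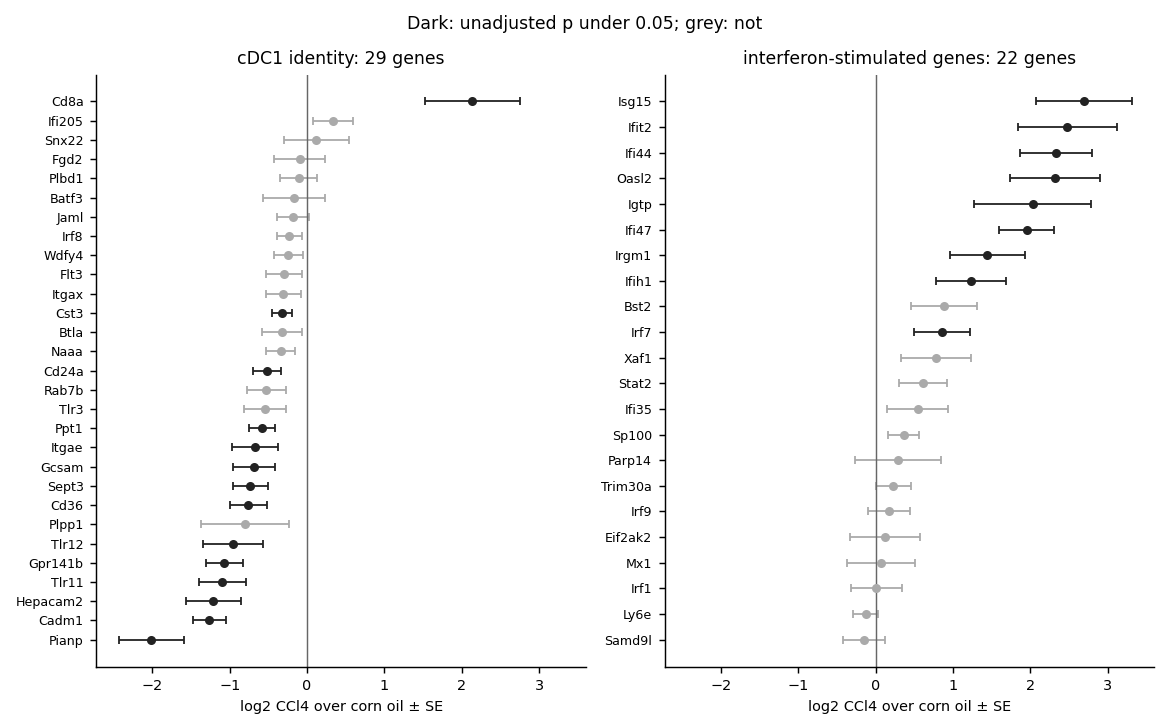
Log2 change of CCl4 over corn oil with its SE (x axis) for the tested genes of the cDC1 list (left, 29 genes) and of the interferon list (right, 22 of 23 genes drawn); dark points have an unadjusted p under 0.05. In the cDC1 list 26 of 29 values are negative and Cd8a stands apart at 2.14; in the interferon list all drawn values but those of Ly6e and Samd9l are positive.

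Mndal and Ifi204, outside that list, were among the 12 genes named for higher values, and neither was called. Mndal had 914 and 791 CPM in the CCl4 mice, against 480 and 463 CPM in the corn oil mice (log2 0.85, SE 0.20, adjusted p = 0.146). Ifi204 had 50.3 and 88.2 CPM in the CCl4 mice, against 12.5 and 5.20 CPM in the corn oil mice (log2 2.85, SE 0.65, adjusted p = 0.146). Both belong to a family of near-identical DNA sensor genes, so their reads may be divided between copies.

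Innate sensors were mixed. Of 14 tested, 0 were called by edgeR, with 3 higher and 3 lower at an unadjusted p under 0.05 and a median log2 of -0.21. Tmem173, which encodes the DNA-sensing adaptor STING, had 163 and 165 CPM in the CCl4 mice, against 66.8 and 109 CPM in the corn oil mice (log2 0.92, adjusted p = 0.39). Ifih1, which encodes the RNA sensor MDA5, had 78.5 and 64.7 CPM in the CCl4 mice, against 29.2 and 31.2 CPM in the corn oil mice (log2 1.23, adjusted p = 0.416). Tlr3, the endosomal sensor of double-stranded RNA that is typical of cDC1, had 176 and 282 CPM in the CCl4 mice, against 288 and 385 CPM in the corn oil mice (log2 -0.54, adjusted p = 0.627).

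No costimulation or cytokine gene was called. Of 10 tested, 0 were called by edgeR, 4 had an unadjusted p under 0.05 with lower values and 1 with higher, and the median log2 was -0.47, against -0.17 in the cells low in Siglech. In those cells the list summed to 1402 and 1298 summed CPM in the CCl4 mice and 1655 and 1092 in the corn oil mice, which overlap. Havcr2, which encodes the inhibitory receptor TIM-3, had 101 and 112 CPM in the CCl4 mice, against 229 and 213 CPM in the corn oil mice (log2 -1.06, SE 0.27, adjusted p = 0.167). The chemokine gene Ccl4 had 223 and 262 CPM in the CCl4 mice, against 405 and 593 CPM in the corn oil mice (log2 -1.03, SE 0.24, adjusted p = 0.147). In the cells low in Siglech alone Ccl4 overlapped, with 90.2 and 118 CPM in the CCl4 mice and 81.7 and 235 CPM in the corn oil mice. Cxcl9, a chemokine that draws T cells, had 226 and 282 CPM in the CCl4 mice, against 380 and 5.20 CPM in the corn oil mice.

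The maturation list, of which the gates exclude 4 genes, had 12 tested, 0 called by edgeR, 2 at an unadjusted p under 0.05 with lower values and a median log2 of -0.25. Cd83, a maturation marker, had 107 and 50.0 CPM in the CCl4 mice and 217 and 93.6 CPM in the corn oil mice, which overlap. Of 12 uptake receptors tested, 0 were called by edgeR, with 2 higher and 2 lower at an unadjusted p under 0.05. Axl, a receptor for dying cells, had 66.0 and 44.1 CPM in the CCl4 mice, against 20.9 and 5.20 CPM in the corn oil mice (log2 1.96, SE 0.64, adjusted p = 0.31). Fcer1g, the Fc receptor gamma chain, had 773 and 585 CPM in the CCl4 mice, against 167 and 453 CPM in the corn oil mice (log2 1.16, adjusted p = 0.217).

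No cell cycle gene was called. Of 23 cell cycle genes tested, 0 were called by edgeR, 3 had an unadjusted p under 0.05 with higher values and 2 with lower, and the median log2 was -0.35. The 3 with higher values were Pcna, Mcm6 and Uhrf1. The sliding clamp gene Pcna had 217 and 188 CPM in the CCl4 mice, against 62.6 and 114 CPM in the corn oil mice (log2 1.22, SE 0.33, adjusted p = 0.193). The helicase subunit gene Mcm6 had 91.1 and 135 CPM in the CCl4 mice, against 33.4 and 46.8 CPM in the corn oil mice (log2 1.51, SE 0.41, adjusted p = 0.196). Pclaf, which binds the clamp and was not in the list, had 226 and 173 CPM in the CCl4 mice, against 54.2 and 83.2 CPM in the corn oil mice (log2 1.55, SE 0.34, adjusted p = 0.146).

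The 2 with lower values were the kinesin genes Kif23 and Kif11. The cytokinesis kinesin gene Kif23 had 50.3 and 61.7 CPM in the CCl4 mice, against 134 and 146 CPM in the corn oil mice (log2 -1.30, SE 0.34, adjusted p = 0.177). Mki67, a general proliferation marker, overlapped widely, with 110.0 and 299.8 CPM in the CCl4 mice and 317 and 260.1 CPM in the corn oil mice. The cell cycle list as a whole had 2822 and 4449 summed CPM in cells low in Siglech of the CCl4 mice, against 3509 and 3374 in those of the corn oil mice. In the Siglech-bearing members it had 547 and 524 summed CPM in the CCl4 mice, against 706 and 568 in the corn oil mice.

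Immediate early genes, which also answer to tissue dissociation, had lower values in 22 of 32 tested, against 2376 of all 4751 genes tested. None was called by edgeR, 8 had an unadjusted p under 0.05 with lower values and 1 with higher, and the median log2 was -0.15. Nr4a2, a nuclear receptor gene, had 135 and 91.1 CPM in the CCl4 mice, against 246 and 234 CPM in the corn oil mice (log2 -1.09, SE 0.28, adjusted p = 0.172). Fos had 3245 and 2818 CPM in the CCl4 mice, against 4156 and 4328 CPM in the corn oil mice (log2 -0.48, SE 0.15, adjusted p = 0.259). Fos was also lower in both CCl4 mice in endothelial cells, at 5341 and 3858 summed CPM, against 6470 and 6888 in the corn oil mice. Among the 6 other sets of cells, Fos was lower in both CCl4 mice in 3 and higher in both in 2. In cDC2 Fos had 2949 and 3335 summed CPM in the CCl4 mice, against 2270 and 2179 in the corn oil mice. The Fos change in Xcr1/Clec9a cells minus that in cDC2 was -0.96 on the log2 scale (SE 0.16, adjusted p = 0.0213 by edgeR's interaction test). With Siglech-bearing cells left out of both sets, the Fos difference was -0.67 (adjusted p = 0.289).

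Glycolysis genes had higher values in 10 of 14 tested, against 2375 of all 4751 genes tested. None was called by edgeR, 4 had an unadjusted p under 0.05 with higher values and 0 with lower, and the median log2 was 0.26. Gapdh had 748 and 744 CPM in the CCl4 mice, against 446 and 401 CPM in the corn oil mice (log2 0.81, SE 0.20, adjusted p = 0.151), though its pseudogenes make its count uncertain. Pkm, the pyruvate kinase gene, had 226 and 244 CPM in the CCl4 mice, against 121 and 114 CPM in the corn oil mice (log2 0.99, SE 0.27, adjusted p = 0.196). Pkm was also higher in both CCl4 mice in all 6 other sets of cells, and Gapdh in 4 of the 6. Ldha, the lactate dehydrogenase gene, had 408 and 361 CPM in the CCl4 mice, against 267 and 250 CPM in the corn oil mice (log2 0.57, adjusted p = 0.483).

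Adhesion, lipid and survival lists added no further call. Of 20 chemokine receptor and adhesion genes, Cadm1 was called, and 1 was higher and 3 lower at an unadjusted p under 0.05. Of 23 lipid and lysosome genes, 0 were called by edgeR, with 3 higher and 3 lower. Lipoprotein lipase (Lpl) had 81.7 and 64.7 CPM in the CCl4 mice, against 16.7 and 0 CPM in the corn oil mice (adjusted p = 0.147). Of 13 NRF2 and metallothionein genes and 12 apoptosis genes, 0 reached an unadjusted p under 0.05. Of the clock genes 2 were tested, and Per1 had 59.7 and 23.5 CPM in the CCl4 mice, against 113 and 93.6 CPM in the corn oil mice (log2 -1.32, adjusted p = 0.328). Per1 was also lower in both CCl4 mice in all 6 other sets of cells.

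Markers of other cells moved with the groups in part. Endothelial markers, including those limited by the gates, added up to 1003 and 431 summed CPM in the CCl4 mice, against 1407 and 1152 in the corn oil mice. Of 7 tested, 3 had an unadjusted p under 0.05 with lower values, among them Dnase1l3 with 270.2 and 129 CPM in the CCl4 mice, against 576 and 354 CPM in the corn oil mice. Monocyte and macrophage markers added up to 4900 and 6520 summed CPM in the CCl4 mice, against 3415 and 3954 in the corn oil mice, and 4 of 7 tested had an unadjusted p under 0.05 with higher values. Plac8 had 1954 and 2125 CPM in the CCl4 mice, against 1335 and 1254 CPM in the corn oil mice (log2 0.66, SE 0.16, adjusted p = 0.153). The list's median log2 was 0.57, and 0.31 in the cells low in Siglech. There Ly6c2 had 23.7 and 177 CPM in the CCl4 mice, against 14.4 and 176 CPM in the corn oil mice, which overlap. Plac8 there had 1457 and 1880 CPM in the CCl4 mice, against 1038 and 852 CPM in the corn oil mice. Among the 7 other sets of cells, both genes were highest in the Siglech-gated cells.

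Of 6 tested genes of the cDC2 list, 0 were called by edgeR. There 4 had positive and 2 had negative log2 values, with a median of 0.33. The 2 negative values were -0.62 for Clec10a and -0.51 for Cd7. Clec10a had 44.0 and 61.7 CPM in the CCl4 mice, against 66.8 and 98.8 CPM in the corn oil mice (adjusted p = 0.758). S100a4, a calcium-binding protein gene of the cDC2 list, had 52 UMIs in the CCl4 cells and 2 in the corn oil cells. In CCl4 1, 4 cells carried it and 1 of them held 17 of the 21 UMIs. The ratio per normalised UMI was 17.1, with a 95% counting interval of 4.49 to 145 (adjusted p = 0.0744); that interval treats UMIs of 1 cell as independent. Plasmacytoid markers added up to 5173 and 3289 summed CPM in the CCl4 mice, against 2112 and 4760 in the corn oil mice, which overlap, and 2 of 11 had an unadjusted p under 0.05 with higher values.

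Kupffer markers added up to 94.9 and 71.4 summed CPM in the CCl4 mice, against 174 and 115 in the corn oil mice, with 1 of 15 (Cd163) at 0 and none tested. Neutrophil markers added up to 14.8 and 13.7 summed CPM in the CCl4 mice, against 18.6 and 0 in the corn oil mice, with Mmp9, Camp and Ltf at 0. T and NK markers added up to 587 and 563 summed CPM in the CCl4 mice, against 156 and 461 in the corn oil mice, with Cd3d, Nkg7, Ncr1, Trbc1, Klrb1c and Gzma at 0. All 4 tested T and NK markers had positive log2 values (median 1.03), and 2, Klrd1 and Cd8b1, had an unadjusted p under 0.05. Klrd1, which encodes CD94, had 320.5 and 259 CPM in the CCl4 mice, against 75.1 and 187 CPM in the corn oil mice (log2 1.18, SE 0.34, adjusted p = 0.224). Klrd1 in the cells low in Siglech had 180.4 and 208 CPM in the CCl4 mice, against 38.5 and 66.1 CPM in the corn oil mice (log2 1.95, SE 0.39, adjusted p = 0.0586). Cd8b1, the CD8 beta chain gene, had 66.0 and 109 CPM in the CCl4 mice, against 25.04 and 57.2 CPM in the corn oil mice (log2 1.13, SE 0.48, adjusted p = 0.549).

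Hepatocyte markers added up to 187 and 736 summed CPM in the CCl4 mice, against 286 and 523 in the corn oil mice. Stellate markers added up to 555 and 178 summed CPM in the CCl4 mice, against 757 and 163 in the corn oil mice. B cell markers added up to 745 and 813 summed CPM in the CCl4 mice, against 423 and 816 in the corn oil mice, with Jchain at 0. These 3 overlap, and no gene of them reached an unadjusted p under 0.05. The part of these other transcripts in the gene values was not tested.

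Whether CCl4 acted differently on Xcr1/Clec9a cells than on cDC2 was tested as an interaction within mice. Of 4959 genes tested, 27 were called (0.544%), 20 with a change more positive in Xcr1/Clec9a cells (0.403%) and 7 with one more negative (0.141%). Nr4a2 had 128 and 85.1 summed CPM in the Xcr1/Clec9a cells of the CCl4 mice, against 219 and 216 in those of the corn oil mice. In cDC2 it had 281 and 162 summed CPM in the CCl4 mice, against 22.1 and 47.9 in the corn oil mice. The changes differed by -3.89 (log2, SE 0.49, adjusted p = 0.00973).

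Stmn1, a tubulin-binding protein of dividing cells, had 122 and 195 summed CPM in the Xcr1/Clec9a cells of the CCl4 mice, against 126 and 149 in those of the corn oil mice. In cDC2 it had 14.99 and 8.54 summed CPM in the CCl4 mice, against 149 and 204 in the corn oil mice (difference of changes 3.94, SE 0.56, adjusted p = 0.0149). The cDC2 gate also held Siglech-bearing cells, and Siglech had 157 and 17.1 summed CPM there in the CCl4 mice, against 880 and 862 in the corn oil mice. Without them cDC2 numbered 47 and 41 cells in the CCl4 mice, against 25 and 11 in the corn oil mice. With them left out of both sets, 19 genes were called, 9 of them among the 27, with Nr4a2 at -3.42 (adjusted p = 0.00346) and Stmn1 at 4.41 (adjusted p = 0.00202).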

How the data were processed

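Nonparenchymal liver cells of 4 mice were measured by single-cell RNA sequencing on the BD Rhapsody system. The deposited tables hold counts (UMIs per gene and cell) that the authors made with BD's WTA Rhapsody Analysis Pipeline 1.9.1 on GRCm38 with GENCODE vM19, per the file headers. Which aligner they ran was not given in the sources used here. Each table is 1 mouse per the labels, 0 columns were left unmapped, and tables total 27091 cells and 203113513 UMIs. The labels do not say that the mice were handled separately beyond this, so p-values measure the spread between these samples.

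Cells that had 200 genes or more and no more than 25% mitochondrial UMIs were kept, members were chosen by their UMIs, and UMIs were summed per mouse. Sums were tested with edgeR 4.0.16 (filterByExpr, TMM factors, quasi-likelihood test, Benjamini-Hochberg adjustment, threshold 0.05) in R 4.3.3. The difference from cDC2 was an interaction with the mouse as block. Shares were tested by an exact two-sided permutation test. Scripts were tested on simulated data. Python 3.11.15 ran scikit-learn 1.9.0, scipy 1.17.1, matplotlib 3.10.9, pandas 2.3.3 and numpy 2.4.6.

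Doublets were not removed. Alternatives were RLE factors, no filter on low counts, DESeq2 1.42.0, limma-voom (limma 3.58.1), a replicate block, a minimum of 3 Xcr1 plus Clec9a UMIs, at most 15% mitochondrial UMIs, removal of the 5% of cells with the highest doublet score (2 simulated doublets per cell, 2000 variable genes, 30 components), thinning to 2000 UMIs and leaving out each mouse. Leaving out Siglech-bearing cells and not applying the Clec4f, C1q and endothelial limits were chosen after seeing the data.

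Genes named were the 12 with the lowest p in each direction with at least 20 CPM in 1 group and no overlap, the 3 with the lowest p of each of 28 gene lists, the 6 with the lowest p of the interaction, and the genes of the gates as values; other genes named in the text were chosen after their values were seen. The members and lists were chosen with earlier results of these data known. Gene coordinates are GENCODE's on GRCm38, and promoters are RefSeq's on GRCm38.p6. A gene of the interferon list is counted in it and is not reported here by itself.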

Additional observations from a re-analysis of the deposited data

Results flagged for a closer look

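The change after CCl4 differed between Xcr1/Clec9a cells and cDC2 in 27 genes by the interaction test of edgeR (adjusted p under 0.05). For the 6 with the lowest p, the change in Xcr1/Clec9a cells minus that in cDC2 was, on the log2 scale, 2.70 for Ly6c2, -3.89 for Nr4a2, 1.88 for Rnase6, 3.60 for Siglech, 3.94 for Stmn1 and 4.94 for Ccl9. Ly6c2, a surface protein gene of monocytes and plasmacytoid dendritic cells, had 1050 and 1101 summed CPM in Xcr1/Clec9a cells of the CCl4 mice, against 494 and 763 in those of the corn oil mice. In cDC2 Ly6c2 had 150 and 149 summed CPM in the CCl4 mice, against 393 and 838 in the corn oil mice. With Siglech-bearing cells left out of both sets the difference was -0.62 for Ly6c2 (adjusted p = 0.898) and 0.84 for Rnase6 (adjusted p = 0.487). Ccl9, a chemokine gene, stayed at 4.90 (adjusted p = 0.00831). It had 29.7 and 74.1 summed CPM in Xcr1/Clec9a cells of the CCl4 mice, against 3.71 and 0 in those of the corn oil mice. These levels rest on few UMIs. In cDC2 Ccl9 had 382 and 816 summed CPM in the CCl4 mice, against 1179 and 635 in the corn oil mice, which overlap. Monocyte/macrophage cells held far more than the Xcr1/Clec9a cells, with means of 1299 summed CPM in CCl4 and 1709 in corn oil. The part of free RNA in the Ccl9 values was not tested.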

How the results depend on the processing

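The number of genes called in Xcr1/Clec9a cells (4 of 4751) was 103 with no filter on low counts, 2 with DESeq2, 2 with limma-voom, 15 with a minimum of 3 Xcr1 plus Clec9a UMIs and 1 with at most 15% mitochondrial UMIs. Leaving out 1 mouse in turn gave 0 to 126 calls: 0 without CCl4 1, 26 without CCl4 2, 37 without corn oil 1 and 126 without corn oil 2. With a replicate block, which the labels' numbers do not establish as a pairing, 5 genes were called, including all 4. The correlation of deviations between mice of the same number was 0.0554. With 2 mice per group it is a single value, because it must be the same for both numbers. The difference from cDC2 (27 calls) gave 102 with no filter on low counts, 58 with the minimum of 3, 43 with 15% mitochondrial UMIs and 29 to 113 without 1 mouse. The cause was not tested in any of these. Over 88 named genes and 1157 alternative values, 1007 kept direction and side of the threshold, 19 lost a call, 108 gained one and 23 changed sign, none of them in a called gene. Cd7 was 0.26 with the minimum of 3. Trf was -0.13 with limma-voom, -0.076 with the replicate block, -0.037 with the minimum of 3, -0.14 with 15% mitochondrial UMIs and -0.20 without Siglech-bearing cells. Without 1 mouse, the log2 ranges of genes that changed sign were -1.24 to 1.30 for Alb, -0.21 to 6.28 for Bad, -0.12 to 1.04 for Bhlhe40, -0.00053 to 1.56 for Bst2, -1.03 to 0.15 for Cd7, -0.54 to 6.45 for Cd79a, -1.35 to 0.73 for Dcn, -2.83 to 0.30 for Ecm1, -0.054 to 0.55 for Ighm, -0.045 to 3.31 for Il7r, -0.39 to 6.45 for Serpina1c, -1.44 to 1.89 for Sparc and -0.78 to 0.52 for Trf. The mean share of kept cells was higher in CCl4 in the alternatives run (log2 0.03 to 0.70), but the groups overlapped with thinning to 2000 UMIs (0.24) and without the Clec4f, C1q and endothelial limits (0.03). With 38 to 51 cells per mouse, genes with few UMIs have wide counting error.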
